A study of Mus musculus with 6 samples.

Results

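Interferon response genes and antigen presentation genes were followed in atrial tissue of old mice that carried or lacked Prkce, the gene of the kinase PKC-epsilon. The set held 42 genes of the 54838 in the deposited count table, chosen by name from a list of interferon-induced genes and of genes for major histocompatibility complex (MHC) class I and class II presentation, with Ensembl identifiers mapped to symbols. The interferon genes numbered 30 and the antigen presentation genes 12, and the groups are kept apart throughout. RNA-seq read counts were available for 6 libraries, 3 per genotype, each described as a biological replicate. Both groups were atria of old mice with an average age of 20.9 ± 0.43 months, male and female, flash-frozen before RNA extraction. The wild-type (WT) controls are given as C57BL/6J and the PKC-epsilon knockouts (KO) as a Jackson Laboratory stock line.

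The labels contradict each other for 4 of the 6 libraries. The name under which a library appears in the table calls it WT or KO, while the title, mouse line and genotype field of the same sample give the opposite genotype in those 4. Libraries are therefore named here by the library name and the replicate number of the title: WT1, WT2, WT3, KO1, KO2 and KO3. WT1 and KO1, whose names share an "Old" prefix, have the same genotype in both readings. WT2 and WT3 are knockouts in the genotype field, and KO2 and KO3 are wild type in it. Each comparison of KO with WT was made once by library name and once by genotype field, and in the 4 numbered libraries alone the readings are exact opposites.

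Prkce itself did not settle the reading. Its level was 36.2 CPM (counts scaled to a common library size) in WT1, 30.2 in WT3 and 28.6 in KO3, against 11.7 in WT2, 9.20 in KO1 and 5.15 in KO2. WT2 and KO3 thus went against their library name, and WT3 and KO2 against their genotype field. The 4 Y-linked genes Ddx3y, Eif2s3y, Kdm5d and Uty summed to 1.08 CPM in WT1 and 1.09 in WT2 and to between 78.9 and 146 in the other libraries, so both libraries with low Y-linked levels are WT by library name and 1 is in each group by genotype field. Total counts ran from 11574206 in WT2 to 24138824 in WT3. Of the 8 atrial cardiomyocyte markers none was at 0, and they summed to between 41073 and 50688 CPM per library.

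Interferons are secreted when a cell senses foreign or misplaced nucleic acid, and their receptors signal through JAK kinases to STAT and IRF transcription factors. Type I interferon brings a complex that holds STAT2 and IRF9 to the interferon-stimulated response element (ISRE), while type II interferon acts on the gamma-activated site (GAS). The induced proteins block viral RNA and entry, and interferon also raises MHC class I and II presentation. Class I is made by most cells, while class II in the heart is carried mainly by macrophages and dendritic cells.

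Promoters are shown for some members of each group, since motif matches differed in share between the interferon and the antigen presentation genes. They are those with the smallest p by library name among the members whose longest stretch free of protein-coding exons had at least 120 bases and held a match. RefSeq promoters of GRCm38.p6 were matched for 23 interferon and 8 antigen presentation members, and the 250 bases before each start site were searched on both strands. The ISRE, searched as GAAA, any 2 bases and GAAA, was present in 13 of the 23 interferon promoters (56.5%), in 0 of 8 antigen presentation promoters and in 3.46% of all 27025 promoters. The GAS, searched as TTCNNNGAA, was in 7 of 23 (30.4%), in 1 of 8 (12.5%) and in 8.13% of all. The Y box CCAAT, a binding site of NF-Y in class II promoters, was in 7 of the 8 antigen presentation promoters (87.5%). Those were the class II genes H2-Aa and H2-Eb1 and the class I genes H2-D1, H2-K1, Psmb9, Tap1 and Tapbp. The Y box was also in 9 of 23 interferon promoters (39.1%) and in 37.49% of all. The X box, searched as AGCAACNG, was found in 1 of 8, H2-Eb1, in 0 of 23 and in 4.66% of all. Matches are descriptions of letters and not of bound sites, and ISRE matches may overlap each other. The patterns allow no other letters at their fixed positions. A promoter without a match may therefore still hold a variant of the ISRE, GAS, X box or Y box.

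The 4 interferon promoters below, printed 5′ to 3′ on the gene's strand with motif matches in capitals, lie at chr19:34640744-34640870 on the plus strand (Ifit1), chr4:156200819-156201068 on the minus strand (Isg15), chr10:128270248-128270497 on the plus strand (Stat2) and chr19:34550444-34550693 on the plus strand (Ifit2). The Ifit1 stretch holds ISRE matches that begin 104 and 85 bases before the start. In Isg15, 3 overlapping ISRE matches begin 78, 72 and 66 bases before it. Stat2 has 1 ISRE match and 2 Y boxes, and Ifit2 has 1 GAS match and 1 Y box with no ISRE match in the window.
Ifit1: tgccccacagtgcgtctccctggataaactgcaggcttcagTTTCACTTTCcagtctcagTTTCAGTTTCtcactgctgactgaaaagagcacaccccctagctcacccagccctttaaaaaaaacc
Isg15: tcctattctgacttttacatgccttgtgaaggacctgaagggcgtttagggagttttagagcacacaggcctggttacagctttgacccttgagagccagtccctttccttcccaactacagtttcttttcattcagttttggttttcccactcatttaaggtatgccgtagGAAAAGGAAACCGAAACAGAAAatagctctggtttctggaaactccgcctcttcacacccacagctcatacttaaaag
Stat2: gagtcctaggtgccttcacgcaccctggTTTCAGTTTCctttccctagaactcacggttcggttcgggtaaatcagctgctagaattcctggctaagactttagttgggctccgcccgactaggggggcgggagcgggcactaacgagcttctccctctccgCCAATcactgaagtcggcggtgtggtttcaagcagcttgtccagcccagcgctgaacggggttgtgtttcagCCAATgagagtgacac
Ifit2: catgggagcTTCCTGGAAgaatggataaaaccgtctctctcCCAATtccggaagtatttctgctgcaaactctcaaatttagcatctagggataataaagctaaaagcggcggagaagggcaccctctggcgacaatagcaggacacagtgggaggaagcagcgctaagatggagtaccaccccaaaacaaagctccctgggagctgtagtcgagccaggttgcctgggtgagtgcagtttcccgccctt

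The antigen presentation promoters lie at chr17:34000348-34000597 on the minus strand (H2-K1), chr17:34305617-34305866 on the plus strand (H2-Eb1) and chr17:34287824-34288073 on the minus strand (H2-Aa). They show the Y box in capitals, which is 16 bases before the start in H2-K1, 59 and 35 bases before it in H2-Eb1 and 48 bases before it in H2-Aa. H2-Eb1 also has the X box match, 92 bases before the start.
H2-K1: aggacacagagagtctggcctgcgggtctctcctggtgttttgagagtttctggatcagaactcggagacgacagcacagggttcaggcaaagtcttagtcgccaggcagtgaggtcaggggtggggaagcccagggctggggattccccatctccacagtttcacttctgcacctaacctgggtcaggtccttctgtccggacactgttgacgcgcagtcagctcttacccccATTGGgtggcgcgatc
H2-Eb1: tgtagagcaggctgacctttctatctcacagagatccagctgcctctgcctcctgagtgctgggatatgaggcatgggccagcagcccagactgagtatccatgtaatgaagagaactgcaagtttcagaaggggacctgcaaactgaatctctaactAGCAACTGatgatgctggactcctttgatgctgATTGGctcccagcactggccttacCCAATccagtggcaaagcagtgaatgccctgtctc
H2-Aa: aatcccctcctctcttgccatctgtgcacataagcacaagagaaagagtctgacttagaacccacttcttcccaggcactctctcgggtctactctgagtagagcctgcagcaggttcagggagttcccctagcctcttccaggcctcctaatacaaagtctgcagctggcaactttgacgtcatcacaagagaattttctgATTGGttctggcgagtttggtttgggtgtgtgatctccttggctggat

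Of the 42 members, 39 had enough counts to be tested and 3 were at 0 in all 6 libraries. These 3 were Irf8, a transcription factor of macrophages and dendritic cells, the GTPase Igtp and the chemokine Cxcl10. The share of the gene body free of other annotated genes was 0% for Irf8 and Cxcl10 and 0.771% for Igtp. Over the whole table, 98.1% of the 1348 protein-coding genes with no free body were at 0, against 19.6% of those at least 50% free, so the 3 members are treated as not measured rather than as silent. Usp18 (37.2% of the body free), Psmb8 (42.7%) and Ciita (46.5%) are likewise treated as counted over part of their length only.

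No member passed the test of KO against WT in either reading (edgeR's quasi-likelihood test, Benjamini-Hochberg adjusted p under 0.05 over all genes). By library name 0 of 39 members were called, beside 0.0% of the 14708 genes tested, and DESeq2 and limma-voom also called none. By genotype field 0 of 39 were called, beside 0.0136% of all genes, 0.109% with DESeq2 and 0.0068% with limma-voom, neither of which called a member. At an unadjusted p under 0.05, 2 members stood out by library name, Irf7 and Oasl2, both lower in KO. Of all genes 1.49% passed that mark, 0.85% lower and 0.639% higher in KO. By genotype field 2 members did, Irf1 and Tap2, both higher in KO, beside 5.69% of all genes, 1.35% lower and 4.34% higher. The values below are therefore given as levels and sizes, each with its spread.

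Although no single gene was called, the interferon members lay mostly on one side by library name. The fold change was below 0 in 22 of 27 and above 0 in 5, with a median log2 fold change of -0.20 and a range from -0.75 to 0.19. Over all genes tested 54.5% were below 0, with a median of -0.02. By genotype field 12 of the 27 were below 0 and 15 above, with a median of 0.04 beside -0.01 over all genes. Antigen presentation members had 5 of 12 below 0 by library name (median 0.07) and 1 of 12 below 0 by genotype field (median 0.22). Without WT2 and KO3, whose Prkce level goes against the library name, 19 of 27 interferon members were still below 0, with a median of -0.24, whereas 0 of the 11 antigen presentation members then tested were. Without WT3 and KO2, whose Prkce level goes against the genotype field, 13 of 27 interferon members were below 0 by that field, with a median of 0.00, and 1 of 12 antigen presentation members was.

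**Figure D1:**
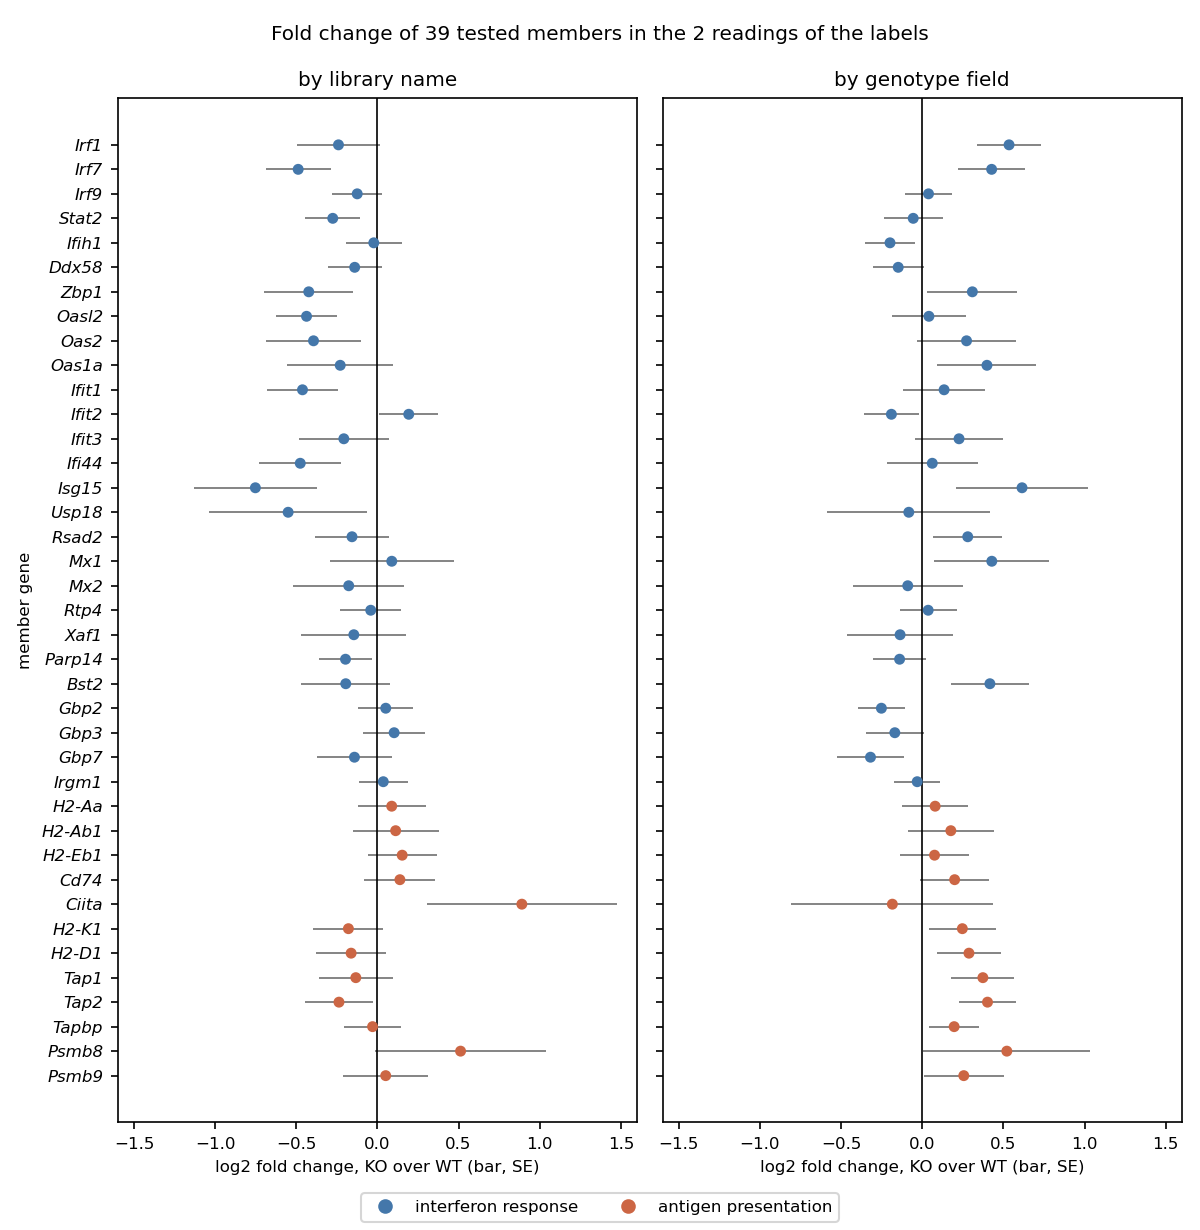
Log2 fold change of KO over WT (horizontal axis, bars are the SE of the fit) for the 39 tested members (vertical axis), by library name on the left and by genotype field on the right. Blue points are interferon genes, 22 of 27 of them left of 0 by library name and 12 of 27 by genotype field, and orange points are antigen presentation genes.

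All 4 transcription factors that were measured had a fold change below 0 by library name (median -0.26). By genotype field 1 was below 0 and 3 above, with a median of 0.23. Irf7, which amplifies type I interferon production (chr7:141262706-141266481), had 15.4 CPM in WT1, 22.7 in WT2 and 18.9 in WT3, and 14.4, 11.8 and 14.3 in KO1, KO2 and KO3. The groups did not overlap by library name, with the lowest WT library, WT1, just above the highest KO library, KO1. The mean was 19.0 ± 3.7 CPM in WT and 13.5 ± 1.5 in KO (SD, n = 3 each), a log2 fold change of -0.49 (SE 0.20, edgeR adjusted p = 0.9999). By genotype field, which moves WT2 and WT3 to the knockouts, Irf7 was at 0.43 (SE 0.21, edgeR adjusted p = 0.896).

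Irf1, an activator of class I genes and of other interferon targets (chr11:53770014-53778374), followed the libraries rather than the names. It had 25.4 CPM in WT1, 57.1 in WT2 and 48.4 in WT3, against 37.5, 33.4 and 39.6 in KO1, KO2 and KO3. The WT libraries by name included both the lowest and the highest value. By genotype field Irf1 had a log2 fold change of 0.54 (SE 0.20, edgeR adjusted p = 0.833), with overlapping groups. Stat2 and Irf9, which bind the ISRE in one complex, spanned 23.3 to 33.0 CPM and 23 to 28.6 CPM over the 6 libraries.

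The 3 sensors differed little between libraries, with a median ratio of the highest to the lowest library of 1.33 beside 1.65 over all genes. Ifih1 (MDA5), which detects long double-stranded RNA, lay between 18.3 and 23.1 CPM, and Ddx58 (RIG-I), which detects RNA ends, between 22 and 29.3. WT1 was the highest library for both. Zbp1, a sensor of Z-form nucleic acid, had 4.20, 6.06 and 4.87 CPM in WT1, WT2 and WT3 and 3.69, 3.77 and 3.77 in KO1, KO2 and KO3. Its groups did not overlap by library name, and its log2 fold change was -0.42 (SE 0.28).

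Among 16 antiviral effectors, 14 had a fold change below 0 by library name and 2 above, with a median of -0.20. By genotype field 5 were below 0 and 11 above, with a median of 0.10. Oasl2, of the oligoadenylate synthetase family (chr5:114896936-114912234), had 36.6, 44.4 and 39.2 CPM in WT1, WT2 and WT3, against 22.4, 29.9 and 36.3 in KO1, KO2 and KO3. The highest KO library, KO3, was just under the lowest WT library. The means were 40.1 ± 4.0 and 29.6 ± 7.0 CPM (SD, n = 3 each), and the log2 fold change was -0.44 (SE 0.19, edgeR adjusted p = 0.9999). By genotype field Oasl2 was at 0.04 (SE 0.23), and without KO1 the value by library name was -0.27.

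Ifit1 binds viral RNA that lacks the host cap modification (chr19:34640871-34650009). Its level was 11.4, 15.3 and 11.1 CPM in WT1, WT2 and WT3 and 7.78, 10.3 and 9.30 in KO1, KO2 and KO3. Again every WT library by name was above every KO library, with a log2 fold change of -0.46 (SE 0.22, edgeR adjusted p = 0.9999), or -0.29 without WT2. Ifit2, its neighbour at chr19:34550694-34576419, went the other way, with 14.2, 13.7 and 12.1 CPM against 14.3, 16.2 and 15.2 and a log2 fold change of 0.19 (SE 0.18). Ifit2 was the only member whose KO libraries by name all exceeded its WT libraries. Ifit3 showed neither pattern, at 14.9, 32.1 and 19.9 CPM against 15.3, 18.3 and 23.9, and 51.2% of its stretches of 50 bases are shared with Ifit3b, so its counts are uncertain. Of 50-base stretches in Ifit1, 7.13% are shared with 2 related genes.

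Isg15, a ubiquitin-like modifier whose promoter holds the 3 ISRE matches shown above (chr4:156199424-156200818), varied more than most members. Its level was 5.58 CPM in WT1, 15.8 in WT2 and 10.1 in WT3, against 4.49, 5.37 and 8.66 in KO1, KO2 and KO3. WT2 was 3.53 times KO1, and WT1 fell among the KO libraries, so the groups overlapped. The log2 fold change was -0.75 (SE 0.38, edgeR adjusted p = 0.9999) by library name and 0.61 (SE 0.41) by genotype field. Without WT2 the value by library name was -0.34.

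Bst2 (tetherin), which holds budding virus at the cell surface, was the interferon member with the highest level per length, at 49.1 CPM per kb of exon free of other genes. It had 28.0, 69.0 and 45.2 CPM in WT1, WT2 and WT3 and 38.1, 45.2 and 40.7 in KO1, KO2 and KO3. The 3 WT libraries by name thus spanned the whole range and the KO libraries lay within it. Its log2 fold change was 0.42 by genotype field (SE 0.24, edgeR adjusted p = 0.906), and 0.13 without WT2. At the other end Mx1, an antiviral GTPase of the dynamin family, had 0.74 CPM per kb and 1.68 to 3.48 CPM over the 6 libraries.

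The other antiviral effectors were 9 genes with log2 fold changes between -0.55 (Usp18, which removes Isg15 from proteins) and -0.04 (Rtp4) by library name. Ifi44 had WT and KO libraries that did not overlap, at 7.02, 7.74 and 8.42 CPM against 4.20, 6.16 and 6.31. Oas1a, Oas2, Rsad2 and Mx2 each had their lowest library in KO2. Xaf1 was lowest in WT3, at 16.4 CPM, against 26.6 to 45.9 in the others. Oas1a shares 57.6% of its 50-base stretches with Oas1g and Oas1b and is uncertain for that reason.

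In all, 5 interferon members had every KO library below every WT library by name (Irf7, Zbp1, Oasl2, Ifit1 and Ifi44), where 2.62% of all genes did, and 1 had the reverse (Ifit2), where 3.33% did. By genotype field 2 interferon members, Ifih1 and Gbp7, had KO below WT without overlap, beside 4.49% of all genes, and none had KO above WT, beside 7.48%. Between libraries of the same replicate number, KO was below WT in 3 of 3 pairs by name for 8 interferon members, beside 9.63% of all genes, and above in 3 of 3 for 2, beside 11.1%.

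**Figure D2:**
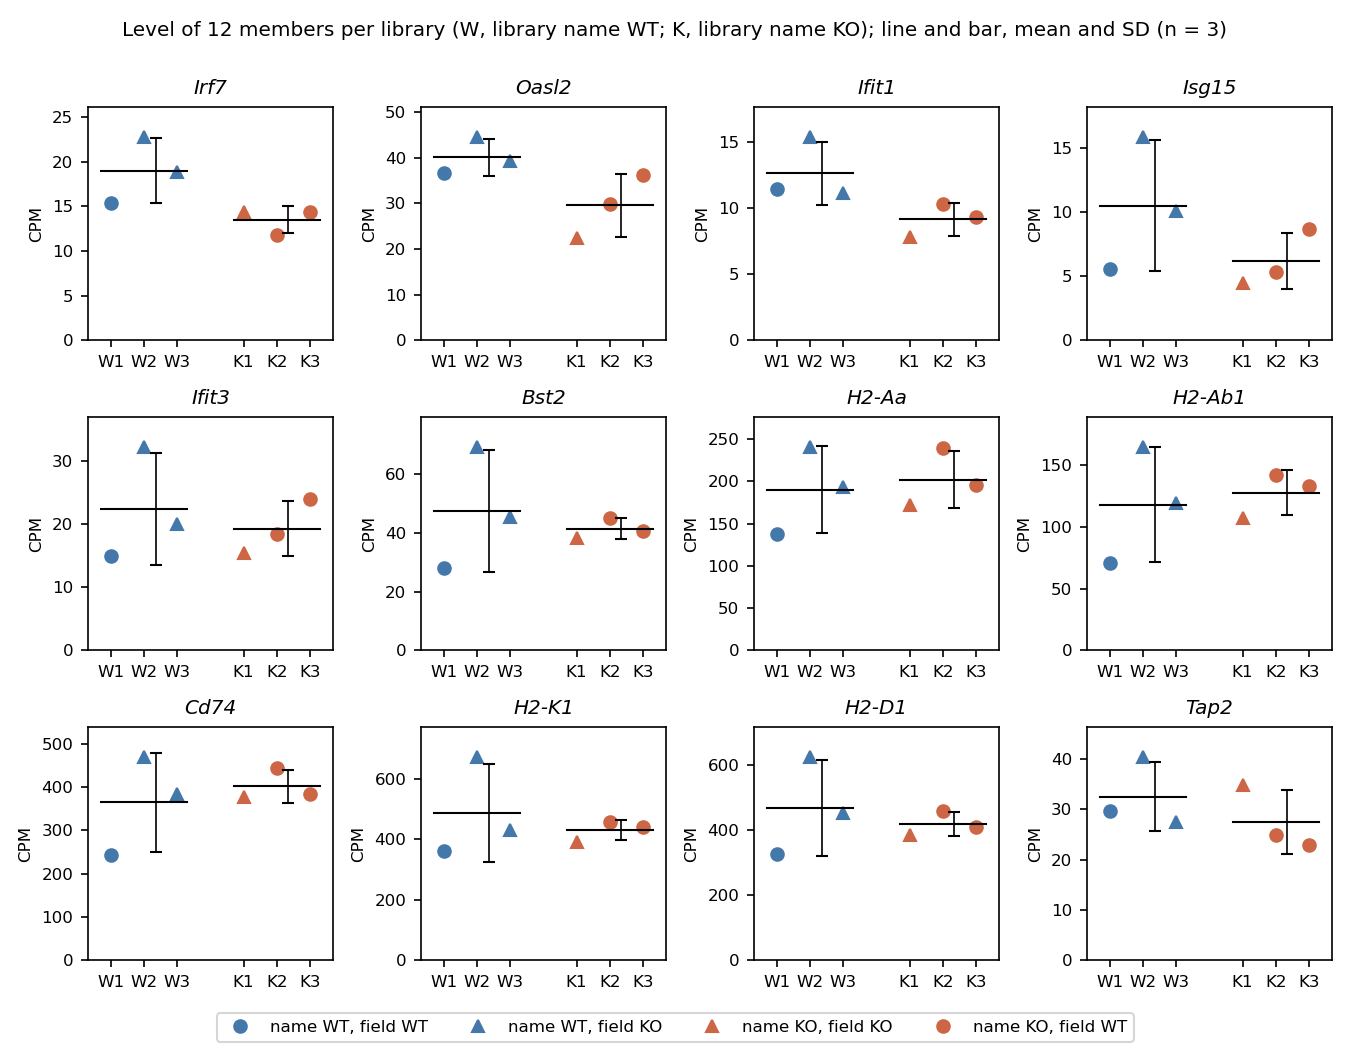
Level of 12 members in CPM (vertical axes, starting at 0) in each of the 6 libraries (horizontal axes). Blue is WT and orange KO by library name, circles are WT and triangles KO by genotype field, lines are means and bars SDs (n = 3). Irf7, Oasl2 and Ifit1 separate the colours, whereas for H2-K1, H2-D1 and Cd74 the WT libraries hold both the lowest value, WT1, and the highest, WT2.

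The guanylate-binding proteins and immunity-related GTPases, which attack the membranes around intracellular pathogens, did not share the direction of the other interferon members by library name. Of the 4 measured, 1 was below 0 and 3 above, with a median of 0.04. By genotype field all 4 were below 0, with a median of -0.21. Gbp2 (chr3:142620602-142638008) had 44.8, 45.5 and 41.4 CPM in WT1, WT2 and WT3 and 35.5, 53.6 and 47.3 in KO1, KO2 and KO3, with a log2 fold change of -0.25 (SE 0.14, edgeR adjusted p = 0.904) by genotype field. KO1 was the lowest library for Gbp2, Gbp3 and Gbp7. Irgm1 varied least of the 4, from 32.0 to 39.8 CPM. Of 50-base stretches in Gbp7, 12.7% are shared with other genes, first among them the overlapping Gm43802 and then Gbp3 and Gbp11, so its counts are uncertain.

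Per length, 8 of the 12 antigen presentation genes lay above every interferon member other than Bst2. Cd74, the invariant chain that escorts class II, had 230 CPM per kb, followed by the class I heavy chains H2-D1 (172) and H2-K1 (156), then H2-Eb1 (86.9), the peptide-loading factor Tapbp (67.4), H2-Aa (51.7) and H2-Ab1 (47.9). Tap2 had 18.6 CPM per kb, with 42.6% of its exon bases free of other genes. Gbp2, the interferon member after Bst2, had 17.9. Psmb9 (4.91), Tap1 (4.71) and Psmb8 (0.89) had levels like those of interferon members. Ciita, the class II transactivator, was the lowest of all at 0.22 CPM per kb, counted over part of its body. Of the 12 genes, 10 lie on chromosome 17, from Tapbp (chr17:33915899-33929292) to H2-D1 (chr17:35262730-35267499).

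Class II genes were lowest in WT1 in 5 of 5 cases. Cd74 had 243 CPM in WT1, 469 in WT2 and 384 in WT3, against 377, 445 and 383 in KO1, KO2 and KO3. H2-Aa, the alpha chain of I-A, had 138, 240 and 193 CPM against 172, 239 and 196, and its partner H2-Ab1 had 70.5, 164 and 120 against 107, 142 and 134. WT2 and KO2 were the highest libraries for all 3 genes, one of each genotype in both readings. H2-Eb1, the beta chain of I-E, had 100 CPM in WT1 and 137 to 187 CPM in the others. H2-Ea-ps, whose symbol marks it as a pseudogene of the I-E alpha chain, had 0 counts in all 6 libraries. Its body is 100% free of other genes, and the largest floor of 3 counts in a library was 0.252 CPM.

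By library name the fold change of class II genes was above 0 in 5 of 5, with a median log2 fold change of 0.14, and by genotype field in 4 of 5, with a median of 0.08. Ciita had the largest value, 0.89 (SE 0.59, edgeR adjusted p = 0.9999), on levels of 0.24 to 1.13 CPM, where the counting interval alone ran from 0.065 to 0.614 CPM in WT1 (95%, exact Poisson). The values of the other 4, from 0.09 to 0.15, were smaller than their standard errors of 0.21 to 0.27.

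Class I genes were highest in WT2 in 7 of 7 cases and lowest in WT1 in 6 of 7. H2-K1 (chr17:33996017-34000347) had 360 CPM in WT1, 670 in WT2 and 431 in WT3, against 392, 458 and 441 in KO1, KO2 and KO3. H2-D1 had 328, 624 and 454 CPM against 386, 460 and 411. The KO libraries by name lay inside the WT range for both genes. Sequence shared with other class I genes covers 9.63% of the 50-base stretches of H2-K1 and 12.8% of those of H2-D1. Their counts are uncertain to that extent.

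The peptide transporter Tap1 (chr17:34187553-34197225) had 36.4 CPM in WT2 and between 19.4 and 25.5 in the others. Its partner Tap2 (chr17:34203527-34216321, 60.4% free of other genes) had 29.7, 40.3 and 27.6 CPM in WT1, WT2 and WT3 and 34.8, 24.9 and 22.9 in KO1, KO2 and KO3. The immunoproteasome subunit Psmb9 had 24.9 CPM in WT2 and 12.4 to 17.7 elsewhere, and Psmb8, counted over part of its body, had 1.94 CPM in WT2, 1.93 in KO1 and 0.54 in WT1. WT2 was thus the highest library for each of these members, though for Psmb8 it was hardly above KO1. Among the 17 further class I genes tested, WT2 was the highest library for 7.

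The class I genes had opposite directions in the readings for most members. By library name 5 of 7 were below 0, among them Tap2 at -0.24 (SE 0.21, edgeR adjusted p = 0.9999) and H2-K1 at -0.18 (SE 0.22, edgeR adjusted p = 0.9999), while Psmb8 was at 0.51 (SE 0.52). By genotype field 7 of 7 were above 0, with Tap2 at 0.40 (SE 0.18, edgeR adjusted p = 0.868), Tap1 at 0.37 (SE 0.19, 0.904), H2-D1 at 0.29 (SE 0.20, 0.909) and Tapbp at 0.20 (SE 0.16, 0.909). Without WT2 H2-K1 was 0.13 by library name, and H2-D1 was 0.06, Tap1 0.14 and Tapbp 0.079 by genotype field. Tap2 without WT2 was -0.051 by library name and 0.26 by genotype field, so its direction still differed between the readings. Without KO1 Tap2 was -0.44 by library name, and without KO3 it was -0.12. Psmb8 by library name was 0.18 without WT1, 0.32 without KO1 and 1.11 without WT2, and Tapbp by genotype field was 0.10 without WT1 and 0.31 without KO2. No antigen presentation member had groups that did not overlap in either reading. Groups did not overlap for 2.62% of all genes with KO lower and 3.33% with KO higher by library name. By genotype field the shares were 4.49% and 7.48%.

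In the antigen presentation genes 2 libraries stood apart, both WT by name. WT1 was the lowest library for 11 of 12 and WT2 the highest for 10 of 12, where over all genes WT1 was lowest for 25.1% and WT2 highest for 20.3%. As the median deviation in log2 CPM from the mean of the 6 libraries, the group was at -0.44 in WT1 and 0.46 in WT2 and between -0.03 and 0.10 in the other 4. Without WT1, 10 of 12 had a fold change below 0 by library name (median -0.14), and without WT2 1 of 12 had (median 0.31). Without KO2 the median was -0.01. By genotype field the count below 0 was 5 of 12 without WT1, 6 of 12 without WT2, and 0 of the 11 then tested without KO1 or without KO3.

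Interferon genes shared only part of that library pattern. WT2 was the highest library for 11 of 27 and the lowest for 0, where over all genes it was lowest for 20.5%, but WT1 was at a median deviation of -0.00, with 7 genes highest and 4 lowest there. KO1 was the lowest library for 10 of 27 and the highest for 0, where over all genes it was lowest for 12.4% and highest for 13.0%. The group's median deviation was 0.20 in WT2, 0.04 in WT3 and 0.02 in KO3, against -0.14 in KO1 and -0.12 in KO2. Without WT2 17 of 27 interferon genes had a fold change below 0 by library name, with a median of -0.19, and by genotype field 17 of 27, with a median of -0.10.

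**Figure D3:**
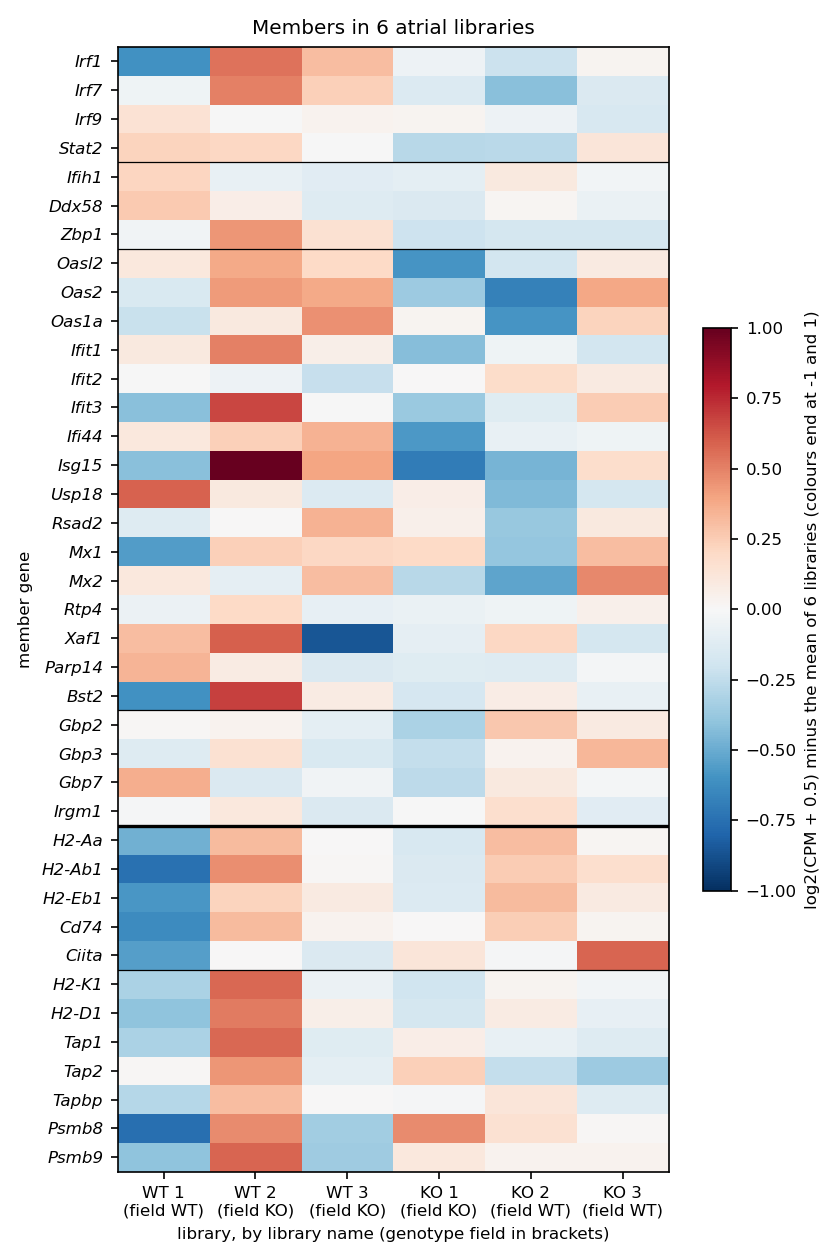
Deviation of each tested member (rows, grouped by role) from its mean over 6 libraries (columns) on the log2(CPM + 0.5) scale, red above and blue below. A thick line separates interferon genes above from antigen presentation genes below, where the WT1 column is the lowest for 11 of 12 genes and the WT2 column the highest for 10 of 12.

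Markers of the cells that carry these genes moved in part with them. The 14 macrophage markers, all detected, summed to 574 CPM in WT1, 833 in WT2 and 789 in WT3, and to 685, 751 and 656 in KO1, KO2 and KO3. WT1 was the lowest library for 9 of the 14, as for class II, and the list's median deviation was -0.29 in WT1 and 0.16 in WT2. Dendritic cell markers, none of 9 at 0, summed to 28.2 to 33.6 CPM in the WT libraries by name and 28.2 to 40.9 in KO, highest in KO2. B and plasma cell markers, with Ms4a1 at 0, summed to 103 to 128 CPM in WT and 105 to 240 in KO, again highest in KO2. T and NK cell markers, with Ncr1 at 0, summed to 6.90 to 12 CPM in WT and 8.69 to 16.5 in KO, highest in KO2. Neutrophil markers, none of 6 at 0, were lowest in WT1, with sums of 14.9, 36.4 and 70.6 CPM in WT1, WT2 and WT3 and 31.9 in KO1, 44.2 in KO2 and 50 in KO3. Adipocyte markers, none of 5 at 0, summed to 13.1 to 43.8 CPM in WT and 13.1 to 112 in KO, highest in KO2. In bulk tissue fewer cells of a type and less RNA per cell cannot be told apart, and the part of these cells in the class II values was not tested.

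The epicardial and mesothelial markers moved in part with the interferon genes by library name. All 6 of them were lowest in KO1, and they summed to 188 to 241 CPM in WT and 138 to 200 in KO. Their median deviation in WT3 was 0.41, where that of the interferon genes was 0.04. All 6 were below 0 by library name and above 0 by genotype field, where 15 of 27 interferon genes were above 0. Endothelial markers, 8 of 8 detected, summed to 1196 to 1342 CPM in WT and 1186 to 1478 in KO. Fibroblast markers summed to 4478 to 5545 CPM in WT and 4202 to 4895 in KO, with Tcf21 at 0 and its body not free of other genes. Most of them went the way of the interferon genes too. Of the 6 tested, 5 were below 0 and 1 above by library name (median -0.16), and 4 were lowest in KO1. By genotype field 3 were below 0 and 3 above. The part of these cells in the interferon values was not tested.

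**Figure D4:**
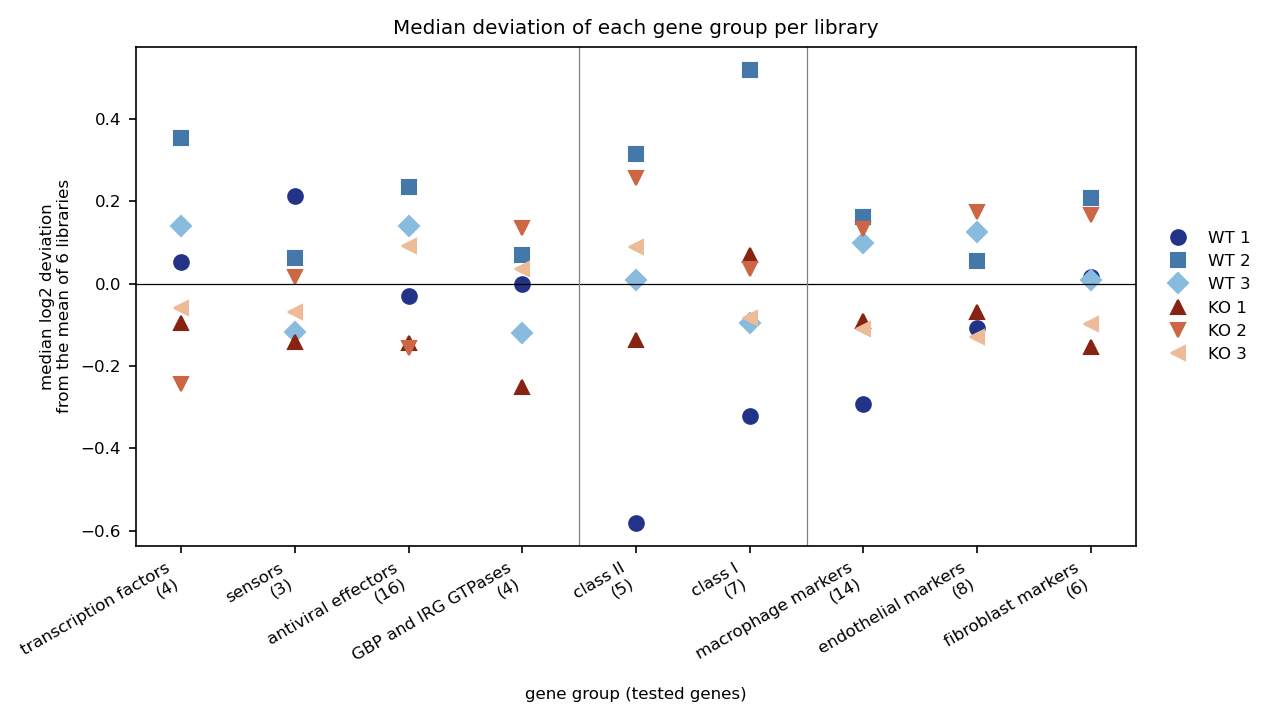
Median deviation of each gene group (horizontal axis, number of tested genes in brackets) from the mean of 6 libraries on the log2(CPM + 0.5) scale (vertical axis), with 1 symbol per library, blue for WT and red or orange for KO by library name. WT1 is the lowest point for class II, class I and macrophage markers, and WT2 the highest for class I.

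Exon length also moved with the libraries that stood apart. Among all genes tested, the shortest quartile (up to 2475 exon bases) had a median deviation of -0.18 in WT1 and 0.14 in WT2, and the longest quartile (from 6596 bases) 0.16 in WT1 and -0.07 in WT2. The 25 members shorter than the median gene of 4185 bases were at -0.32 in WT1 and 0.44 in WT2. The 14 longer members were at 0.12 and 0.09. Split by group, the 15 short interferon members were at -0.06 in WT1 and 0.24 in WT2, and the 12 long ones at 0.18 and 0.09. The 10 short antigen presentation members were at -0.44 in WT1 and 0.46 in WT2. The 2 long ones had medians of -0.44 and 0.29 but differed from each other in WT2. Tap1 was at -0.32 in WT1 and 0.57 in WT2. Ciita was at -0.55 and 0.0039, on only 4 counts in WT1 and 7 in WT2. Of the antigen presentation genes 10 of 12 were short, including H2-K1, H2-D1, Cd74 and H2-Ab1, while Oasl2, Stat2, Ifih1 and Ddx58 were long. The part of length in the member values was not tested.

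**Figure D5:**
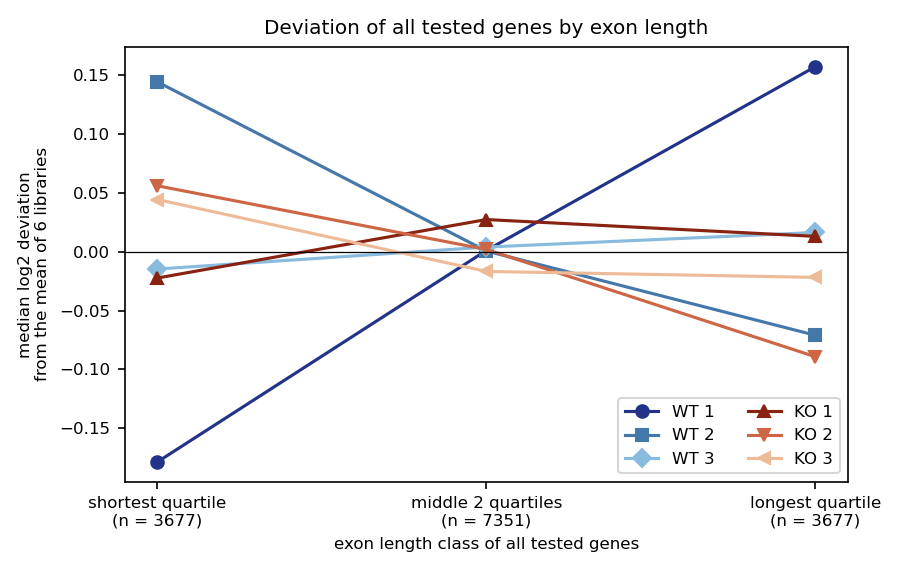
Median deviation of all tested genes from the mean of 6 libraries (vertical axis, log2(CPM + 0.5) scale) in 3 classes of exon length (horizontal axis, n genes each), with 1 line per library. WT1 runs from -0.18 in the shortest quartile to 0.16 in the longest, and WT2 from 0.14 to -0.07.

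Upstream of the members, interferons themselves were hardly detected. Ifnb1 and Ifna4 had 0 counts in all 6 libraries, where the floor of 3 counts was 0.252 CPM in the shallowest, and Ifng had 2 counts in all. Of the 6 receptor genes tested, 3 were below 0 and 3 above by library name and 5 and 1 by genotype field, among them Ifnlr1 at -0.39 (SE 0.29) and Il10rb at 0.09 (SE 0.14). JAK-STAT genes and their regulators had 10 of 12 below 0 with a median of -0.10, and by genotype field 5 of 12, with a median of 0.02. The smallest p by library name were those of Stat3 (-0.22, SE 0.17) and Pias1 (-0.22, SE 0.17). Socs3, a feedback inhibitor of JAK kinases named after its values were seen, was at -0.86 (SE 0.64) by library name and 1.38 (SE 0.43) by genotype field. None of these genes was called.

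Nucleic acid sensing genes had 10 of 14 below 0 by library name with a median of -0.07, and 9 of 14 by genotype field with a median of -0.09. The exception with the smallest p was Mb21d1 (cGAS, the sensor of cytosolic DNA), at 0.96, 0.76 and 1.40 CPM in WT1, WT2 and WT3 and 1.87, 2.54 and 2.3 in KO1, KO2 and KO3. Its KO libraries by name all exceeded its WT libraries, and its log2 fold change was 1.07 (SE 0.42, edgeR adjusted p = 0.9999), or -0.50 (SE 0.49) by genotype field. Tlr3, a receptor for double-stranded RNA, was at -0.34 (SE 0.21).

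Beyond the members, 47 further interferon-stimulated genes were tested, of which 32 were below 0 by library name and 15 above, with a median of -0.09, none called. By genotype field 19 were below 0 and 28 above, with a median of 0.05. Oasl1 had 2.94, 4.97 and 5.57 CPM in WT1, WT2 and WT3 and 2.1, 2.1 and 3.82 in KO1, KO2 and KO3, a log2 fold change of -0.74 (SE 0.37). Isg20, an exonuclease, was at -0.51 (SE 0.27). These genes had a median nearer to that of all genes than the members did. Of the 47, 1 had KO below WT without overlap by library name, beside 2.62% of all genes. Further GBP and IRG genes were mostly not measured, with 7 of 13 at 0, and the 6 tested had 3 below 0 and 3 above by library name, and 2 and 4 by genotype field, with Gbp5 at -0.12 (SE 0.20) and Gbp8 at 0.12 (SE 0.25).

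Further class II genes, including the loading factors and the RFX and NF-Y subunits, had 7 of 18 below 0 and 11 above by library name, with a median of 0.03, and by genotype field 11 below 0 and 7 above, with a median of -0.06. H2-DMb2, of the H2-DM peptide exchanger, was at 0.73 (SE 0.43) and the costimulator Cd80 at -0.37 (SE 0.23). Further class I genes had 9 of 17 below 0 by library name, with a median of -0.01, and 7 of 17 by genotype field, with a median of 0.02, among them H2-Q7 at -0.45 (SE 0.28) and the proteasome activator Psme2 at 0.25 (SE 0.16). H2-Q7 had 29.5 CPM in WT2 and 12.7 to 15.9 in the others, the library pattern of H2-K1 and H2-D1. It shares 50-base stretches with both, so the counts of these genes may not be independent. Nlrc5, the transactivator of class I genes, named after its values were seen, had 16.2 CPM in WT2 and 7.90 to 10.7 in the others. B2m, the light chain shared by class I molecules, was at 0 with no free gene body, as were H2-T23, H2-T24, Tapbpl and Psmb10, and none of these has a value here.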

How the data were processed

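Atrial RNA was sequenced in 6 libraries made with a TruSeq kit, per the labels' protocols. The deposited table holds raw read counts per gene, made with HISAT2 2.1.0 and featureCounts 1.5.0-p3 on GRCm38, per the submitters' processing notes. Annotation release, strand setting and handling of reads over several genes were not given in the sources used here. Positions, exon lengths and overlaps came from GENCODE M21 (54809 of 54838 identifiers), motifs and promoters from RefSeq (GRCm38.p6). Counts were tested with edgeR 4.0.16 in R 4.3.3 (filterByExpr, TMM, quasi-likelihood, two-sided, adjusted p under 0.05 over 14708 genes), with DESeq2 1.42.0 and limma-voom 3.58.1 as alternatives, and the steps were tested on simulated data. CPM used TMM-scaled library sizes, and deviations log2(CPM + 0.5). Intervals and floors cover counting error only.

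The members and lists were chosen with earlier results of these data known. Fold changes with adjusted p are given for the 4 members with the smallest p among the interferon and the antigen presentation genes in each reading, and the 2 with the smallest p in each other list. The rest are given as levels, counts and ranges. Titles number the replicates 1 to 3 in both genotypes. Same-numbered libraries deviated together from the group means (r across genes 0.157, 0.162 and 0.121 by library name, and 0.269, 0.227 and 0.121 by genotype field), so the numbers were taken as pairs in an alternative fit. Other alternatives were size factors, the count filter, the library name series, the Y-linked level, leaving out libraries whose Prkce level goes against the label, and leaving out each library. Samples are biological replicates per the labels, with 3 per group limiting precision.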

Additional observations from a re-analysis of the deposited data

How the results depend on the processing

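No member was called in any alternative, in either reading, and the smallest adjusted p of any member was 0.138. With the replicate block 0 of 39 members were called by library name and by genotype field, and pairing the libraries changed no call. The median of the interferon members by library name stayed below 0 in all 15 alternatives, from -0.25 to -0.13. The value nearest to 0 came with the Y-linked level as a covariate, where 18 of 27 were below 0 instead of 22. Of 237 alternative values of named members, 233 kept their direction and side of the threshold. By library name Tap2 was 0.062 and H2-K1 0.10 without the 2 libraries whose Prkce level goes against the label, where 0 of the 11 antigen presentation members tested were lower in KO, and Psmb8 was -3.12e-06 and 9 of 12 antigen presentation members were lower in the numbered libraries alone. By genotype field the numbered libraries gave a median of 0.23 for interferon members, with 7 of 27 lower and 3 of 12 antigen presentation members lower, and limma-voom gave 0 of 12 lower. Leaving out 1 library at a time, antigen presentation members lower in KO ran from 1 to 10 by library name and from 0 to 6 by genotype field, the interferon median by genotype field from -0.10 to 0.082, and H2-K1 by library name from -0.36 to 0.13. The cause was not tested. Ciita dropped out of 3 fits by library name and 2 by genotype field through the count filter. The lowest counted members, Ciita, Usp18 and Psmb8, are limited by depth.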

Other observations

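Other genes of the same pathways were also left without a value. Besides Irf8, Igtp and Cxcl10, 7 of the 13 further GBP and IRG genes were at 0 in all 6 libraries (Gbp4, Gbp6, Gbp9, Gbp10, Tgtp1, Tgtp2 and Ifi47), as were Ifi203, Mnda, Cxcl11, Myd88 and H2-Oa, each with under 1% of its gene body free of other annotated genes. H2-Ea-ps, Ifnb1 and Ifna4 were at 0 with 100% of the body free.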
